A study of Homo sapiens with 8 samples.

Results

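The genes of laminin-332, of its receptor integrin alpha6beta4 and of the hemidesmosome were followed in a human colon cancer line treated with the compound MANIO. The 8 genes, LAMA3, LAMB3, ITGA6, ITGB4, COL17A1, DST, PLEC and CD151, were taken by symbol from a table of 58302 genes, and each matched 1 gene. They were selected on their function and on the log2 fold changes between MANIO and DMSO measured in these same libraries. Those fold changes are therefore given as a description with standard errors (SE) and no p-value. Whether a gene passed a threshold on adjusted p is a description too, and nothing is concluded from how many genes differ. HCT116, the established colon cancer line used, carried wild-type p53 in both groups (p53+/+). Cells were dosed 24 hours after seeding and collected after 24 hours with MANIO at 1 µM, known here by its code name alone, or with the solvent DMSO. Each group had 4 libraries, which the labels call biological replicates without saying how the cultures were separated, so p-values measure the spread between these libraries. All 8 samples come from this 1 line, and total RNA was read as whole-gene counts.

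Laminin-332 is a basement membrane protein whose alpha3 and beta3 chains are encoded by LAMA3 and LAMB3. Epithelial cells hold on to it through integrin alpha6beta4, whose beta4 subunit has a long cytoplasmic tail. In skin, plectin (PLEC) and the BPAG1e form of dystonin (DST) link that tail to keratin filaments, and the transmembrane collagen XVII (COL17A1) and the tetraspanin CD151 join the complex. Simple epithelia such as that of the gut form a smaller complex of alpha6beta4 and plectin, without collagen XVII and BPAG1e.

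Promoter windows from RefSeq on GRCh38.p14, covering 250 bases before to 50 bases after a transcription start, were found for 5 of the 8 genes. The windows of 3 genes are shown because LAMA3, COL17A1 and LAMB3 had the largest differences of the 8. LAMA3 is shown at chr18:23872770-23873069 on the plus strand, and this start lies 183.6 kb inside the gene. LAMB3 is shown at chr1:209651325-209651624 and COL17A1 at chr10:104085831-104086130, both on the minus strand. The LAMB3 window shown is 1 of 3 and lies wholly inside the gene. Capitals mark matches on either strand to the AP-1 motif TGACTCA, to the GC box GGGCGG or, in COL17A1, to the p53 half-site.
LAMA3: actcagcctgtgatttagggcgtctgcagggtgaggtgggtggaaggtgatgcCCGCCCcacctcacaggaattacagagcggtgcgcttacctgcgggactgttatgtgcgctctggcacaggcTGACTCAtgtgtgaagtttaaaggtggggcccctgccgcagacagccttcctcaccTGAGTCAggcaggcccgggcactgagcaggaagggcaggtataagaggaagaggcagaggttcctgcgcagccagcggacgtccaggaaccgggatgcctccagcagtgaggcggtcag
LAMB3: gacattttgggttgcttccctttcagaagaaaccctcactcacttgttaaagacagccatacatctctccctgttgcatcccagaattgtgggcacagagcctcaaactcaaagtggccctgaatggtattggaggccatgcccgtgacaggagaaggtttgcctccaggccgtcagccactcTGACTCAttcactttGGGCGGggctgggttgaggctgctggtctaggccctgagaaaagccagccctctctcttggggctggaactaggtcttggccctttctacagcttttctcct
COL17A1: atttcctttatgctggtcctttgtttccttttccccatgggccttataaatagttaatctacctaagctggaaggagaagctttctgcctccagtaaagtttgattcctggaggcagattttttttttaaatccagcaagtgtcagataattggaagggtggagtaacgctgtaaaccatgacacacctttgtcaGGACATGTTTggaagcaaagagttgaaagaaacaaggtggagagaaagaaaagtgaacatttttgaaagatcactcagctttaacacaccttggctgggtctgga
The AP-1 motif matched at 2 places in the LAMA3 window, beginning at base 126 and base 182 counted from the window's first base. It matched at base 184 of this LAMB3 window and in neither of the other 2 LAMB3 windows, which span the first base of the gene. The third of the 10 windows with a match was one of DST, at base 276, a gene whose groups overlapped. Among all 34796 distinct RefSeq windows, 4.96% held that motif, 44.9% held a GC box and 6.65% held a p53 half-site. COL17A1 held a p53 half-site at base 196, and it was the only one of the 10 windows of these 5 genes that did. GC boxes were found in 7 of the 10 windows, and an E-box (CANNTG), present in 68.7% of all windows, in 10 of 10. The windows are not all separate stretches, since 2 of LAMB3 overlap and both of ITGA6 overlap. In each overlap the same GC box is counted in both windows. These matches describe letters in a window and not binding, and some E-box bases overlap AP-1 bases in LAMA3.

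All 8 genes passed the filter on low counts. By edgeR's quasi-likelihood test over 15712 genes, 6 of the 8 had an adjusted p under 0.05, each higher in MANIO, where 54.6% of all genes tested were called in either direction 27.8% were called higher and 26.8% were called lower. The median log2 fold change of the 8 genes was 0.64, and that of all genes tested was 0.0043. Groups did not overlap for the same 6 genes, as for 48.3% of all genes tested (24.7% with MANIO above and 23.7% with MANIO below). LAMA3 and COL17A1 were 4.95-fold and 4.58-fold higher in MANIO libraries, LAMB3 was 1.99-fold, PLEC 1.65-fold, ITGB4 1.47-fold and ITGA6 1.14-fold higher. DST and CD151 did not pass. In bulk RNA, more RNA per cell and more cells that express a gene cannot be told apart.

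**Figure D1:**
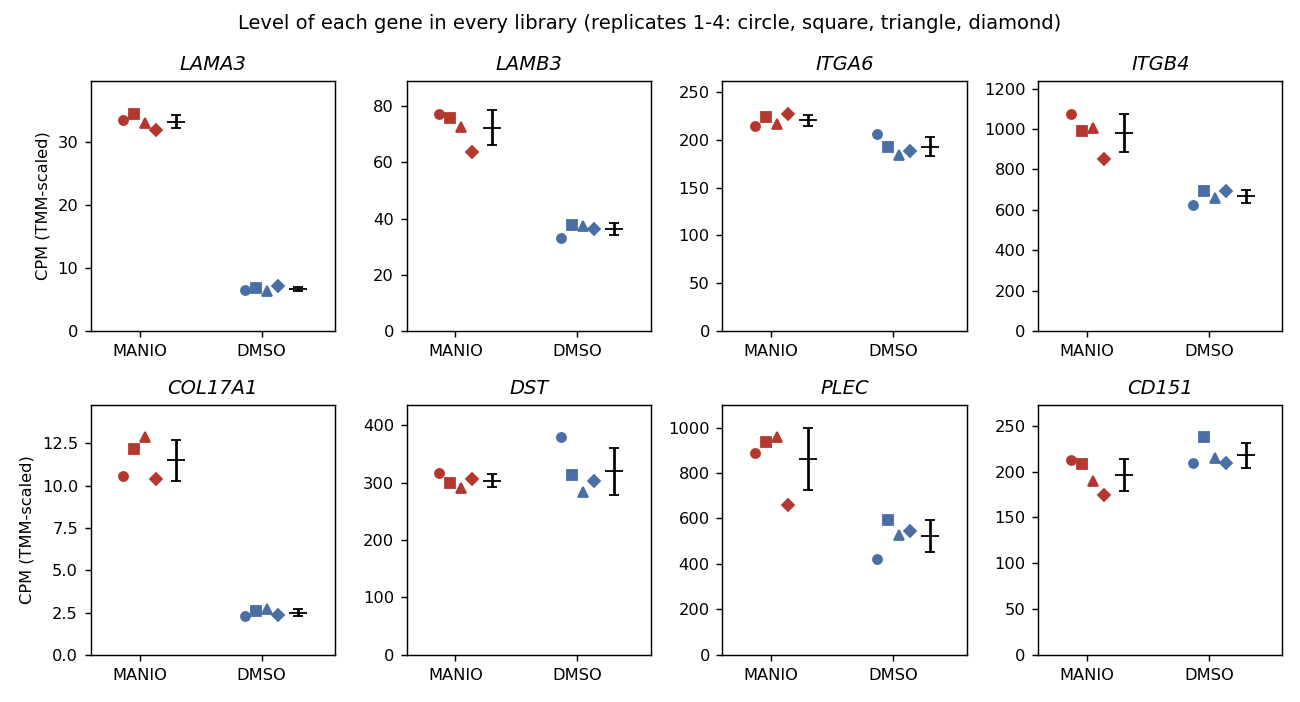
Level of each of the 8 genes in TMM-scaled counts per 1e6 counts (CPM) in every library, MANIO on the left and DMSO on the right of each panel, with the mean and SD over 4 libraries beside the points. The MANIO points of LAMA3, LAMB3, ITGA6, ITGB4, COL17A1 and PLEC lie above all DMSO points, and those of DST and CD151 overlap with them.

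Among the laminin chains, LAMA3 (ENSG00000053747, chromosome 18, 23689443 to 23956222 on GRCh38) differed most. Its level was 33.4, 34.4, 32.9 and 31.9 CPM in MANIO replicates 1 to 4, against 6.51, 6.85, 6.30 and 7.14 CPM in DMSO replicates 1 to 4. Every MANIO library was far above every DMSO library, and neither group had a library that stood apart. The log2 fold change was 2.31 (SE 0.0678), which placed LAMA3 at rank 86 of 15712 genes ordered from the largest rise. The counts behind these values were 949 to 1130 in MANIO and 175 to 201 in DMSO.

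LAMB3 (ENSG00000196878, chromosome 1, 209614870 to 209652466) encodes the beta3 chain. Its level was 77.3, 75.9, 72.5 and 63.6 CPM in MANIO replicates 1 to 4 and 33.2, 37.9, 37.5 and 36.4 CPM in DMSO replicates 1 to 4. MANIO replicate 4 was the lowest of its group and DMSO replicate 1 the lowest of the other, and the groups lay well apart. The log2 fold change was 1.00 (SE 0.0695), at rank 723.

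Counts per kilobase allow LAMA3 and LAMB3 to be set beside each other, with the merged exonic length as the divisor. In MANIO libraries the level was 2.26 ± 0.0714 CPM per kb for LAMA3 and 15.4 ± 1.32 for LAMB3 (SD, n = 4). In DMSO libraries it was 0.456 ± 0.0252 CPM per kb for LAMA3 and 7.73 ± 0.458 for LAMB3 (SD, n = 4). LAMA3 was thus the lower of both chains per length in each group. The ratio of LAMA3 to LAMB3 per kb was 0.138, 0.145, 0.145 and 0.160 in MANIO replicates 1 to 4, against 0.0627, 0.0577, 0.0536 and 0.0627 in DMSO replicates 1 to 4. It was higher in every MANIO library than in any DMSO library. Transcripts of LAMA3 hold 48.5% GC and those of LAMB3 59.4%, and the part of GC content in this ratio was not tested. LAMA3 has long transcripts and shorter ones from the internal start shown above, and whole-gene counts do not separate them. Divided by the 5.67 kb of the longest transcript from that start, its level was 5.85 ± 0.185 CPM per kb in MANIO and 1.18 ± 0.0653 CPM per kb in DMSO.

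**Figure D2:**
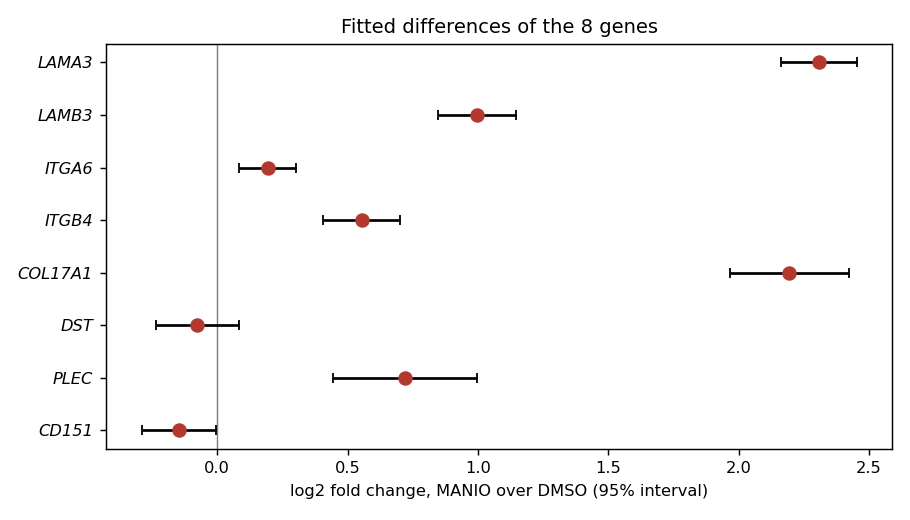
Fitted log2 fold change, MANIO over DMSO, with its 95% interval for each of the 8 genes. LAMA3 and COL17A1 lie above 2, LAMB3 near 1, and the interval of DST includes 0.

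Both subunits of the receptor were higher in MANIO, by different amounts. ITGB4 (ENSG00000132470, chromosome 17, 75721328 to 75757818), the beta4 subunit, had 1076, 988, 1007 and 851 CPM in MANIO replicates 1 to 4, against 627, 693, 658 and 694 CPM in DMSO replicates 1 to 4. The lowest MANIO library, replicate 4, still exceeded the highest DMSO library. The log2 fold change was 0.55 (SE 0.0688).

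ITGA6 (ENSG00000091409, chromosome 2, 172427354 to 172506282), the alpha6 subunit, can also pair with the beta1 subunit. It had 215, 223, 216 and 227 CPM in MANIO and 206, 192, 184 and 188 CPM in DMSO. The groups did not overlap, but DMSO replicate 1 came close to MANIO replicate 1, and the log2 fold change was 0.19 (SE 0.0514). The ratio of ITGB4 to ITGA6 per kb was 4.84, 4.28, 4.50 and 3.62 in MANIO replicates 1 to 4, against 2.94, 3.49, 3.46 and 3.56 in DMSO replicates 1 to 4. It was higher in every MANIO library, and MANIO replicate 4 lay next to the highest DMSO library. Transcripts of ITGB4 hold 62.9% GC and those of ITGA6 43.2%, and the part of GC content in this ratio was not tested.

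Among the parts of the hemidesmosome, COL17A1 (ENSG00000065618, chromosome 10, 104031286 to 104085957) was the lowest in level and had the largest difference. It had 10.6, 12.2, 12.8 and 10.4 CPM in MANIO replicates 1 to 4 and 2.31, 2.62, 2.74 and 2.34 CPM in DMSO replicates 1 to 4. Every MANIO library was above every DMSO library, with a log2 fold change of 2.19 (SE 0.107), at rank 103 of all genes. The counts were 308 to 406 in MANIO and 62 to 86 in DMSO.

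PLEC (ENSG00000178209, chromosome 8, 143915147 to 143976734) encodes plectin, which ties the beta4 tail to intermediate filaments. Its level was 887, 937, 957 and 659.5 CPM in MANIO replicates 1 to 4, against 423, 594, 528 and 544 CPM in DMSO replicates 1 to 4. MANIO replicate 4 and DMSO replicate 1 were each well below the rest of their group, and the groups did not overlap. The log2 fold change was 0.72 (SE 0.126), the largest SE of the 8 genes. Without both of these libraries it was 0.74, a setting added after the data were seen.

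DST (ENSG00000151914, chromosome 6, 56457987 to 56954628) encodes dystonin, whose forms include the epithelial BPAG1e and long forms of other tissues that these counts do not separate. It had 316, 299, 289.9 and 307 CPM in MANIO and 379, 313, 283 and 303 CPM in DMSO. The groups overlapped, with DMSO replicate 1 above the other 7 libraries. The log2 fold change was -0.08 with a 95% interval of -0.24 to 0.083, and 0.014 without DMSO replicate 1.

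CD151 (ENSG00000177697, chromosome 11, 832843 to 839831), a tetraspanin that binds laminin-binding integrins, had 213, 209, 190.2 and 174 CPM in MANIO and 209.5, 237, 214 and 209.3 CPM in DMSO. The groups overlapped, and the log2 fold change was -0.15 with a 95% interval of -0.29 to -0.0056. It did not pass after adjustment over all genes. It did pass under 3 of the alternatives, without MANIO replicate 1 (log2 fold change -0.19), without a filter on low counts (-0.16) and with a replicate block (-0.15). Of all genes, 8096, 9241 and 8845 were called in these 3 settings.

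Levels per length differed widely between the genes. In DMSO libraries the order was ITGB4 (98.8 ± 4.79 CPM per kb), CD151 (55.3 ± 3.39), PLEC (30.7 ± 4.24), ITGA6 (29.5 ± 1.49), LAMB3 (7.73 ± 0.458), DST (7.55 ± 0.977), LAMA3 (0.456 ± 0.0252) and COL17A1 (0.354 ± 0.0297; SD, n = 4 each). PLEC and ITGA6, and LAMB3 and DST, did not differ beyond their spread. The order of MANIO libraries had PLEC at 50.6 ± 8.06 CPM per kb beside CD151 at 49.9 ± 4.51, which overlapped, and LAMB3 above DST. The level depends on the length used. With the longest protein-coding transcript as divisor, CD151 came to 131 CPM per kb in DMSO, above ITGB4 at 113, and the level of DST came to 14.2.

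**Figure D3:**
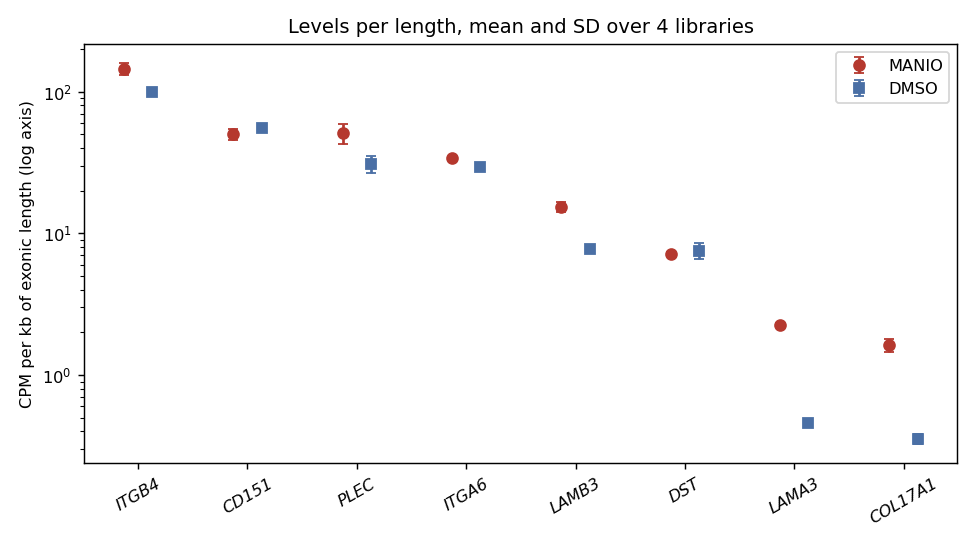
Level per kb of merged exonic length on a log axis, as mean and SD over 4 libraries, for the 8 genes, ordered by DMSO level. ITGB4 is the highest in both groups, and LAMA3 and COL17A1 are the lowest in both groups.

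MANIO replicate 4 and DMSO replicate 1 differed from the rest of their groups in a way that followed GC content. Among 480 tested genes with over 65% GC in their transcripts, the median log2 deviation from the group's median was -0.27 in MANIO replicate 4 and -0.31 in DMSO replicate 1. In MANIO replicate 3 it was 0.13. Among 3442 genes with 40 to 45% GC it was 0.083 in MANIO replicate 4 and 0.062 in DMSO replicate 1. PLEC, at 66.6% GC the richest of the 8 genes, deviated by -0.47 in MANIO replicate 4 and by -0.34 in DMSO replicate 1. DST, at 41.6% the poorest, deviated by 0.017 in MANIO replicate 4 and by 0.30 in DMSO replicate 1. These lie below and above the medians for 40 to 45% GC. CD151, at 62.2% GC, deviated by -0.19 in MANIO replicate 4 and by -0.016 in DMSO replicate 1. The median for 60 to 65% GC was -0.15 in both of these libraries. Without both libraries, the log2 fold changes were 2.31 for LAMA3, 1.01 for LAMB3, 0.21 for ITGA6, 0.59 for ITGB4, 2.20 for COL17A1, 0.0094 for DST and -0.11 for CD151. The same 6 of the 8 genes were called, where 54.7% of the 15846 genes tested in that setting were called in either direction.

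After each group's mean was taken off the log2 CPM, LAMB3, ITGB4, PLEC and CD151 varied together over the 8 libraries. Pearson's r was 0.89 for LAMB3 with ITGB4, 0.90 for LAMB3 with PLEC and 0.72 for PLEC with CD151, and all 4 genes have 59.4 to 66.6% GC. ITGA6 and DST, at 43.2% and 41.6% GC, had r = 0.84 with each other, and ITGA6 had r = -0.63 with ITGB4. These values describe 8 libraries that share the GC trend, and the part of that trend in them was not tested. Across all genes, the median log2 fold change was 0.14 above 65% GC and -0.07 between 40 and 45% GC, and 0.14 and -0.07 without both libraries.

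**Figure D4:**
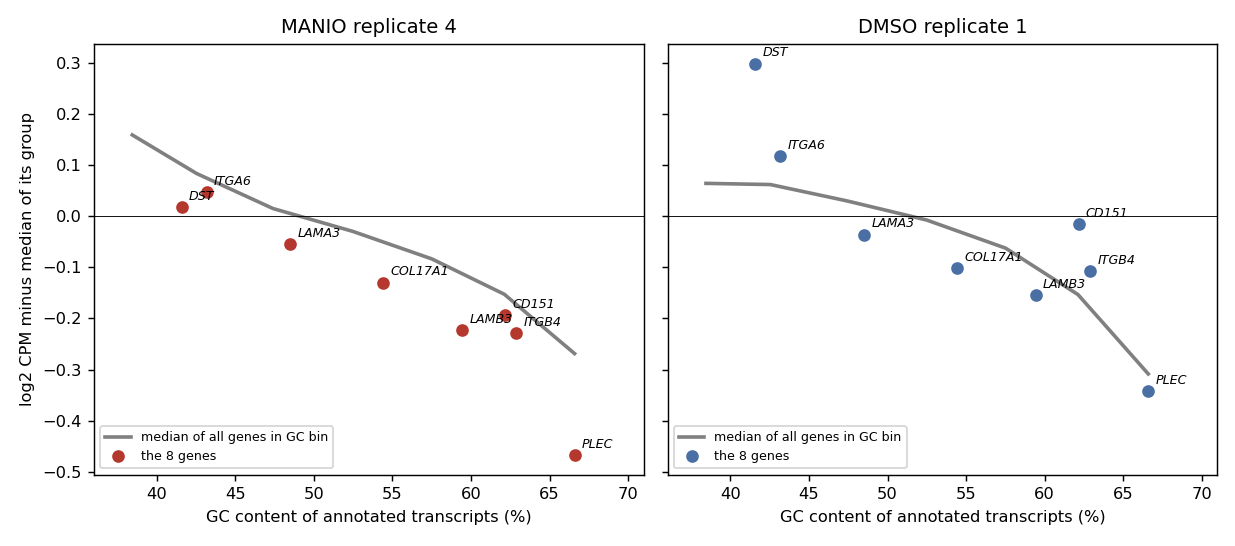
Deviation of log2 CPM from the median of its own group, in MANIO replicate 4 (left) and DMSO replicate 1 (right), against GC content of the annotated transcripts in percent. Points are the 8 genes and the grey line joins the medians of all tested genes in 7 GC bins; PLEC lies at -0.47 and -0.34.

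The pathway partners were described from 7 lists of genes from general knowledge, chosen with earlier results of these data known. Most genes named from them were picked by smallest p, so their p-values are a description too. In these lists, rose and fell mean an edgeR adjusted p under 0.05. Over all 15712 genes tested, 27.8% rose and 26.8% fell by this rule, together 54.6%. The counts are a description, and no list was tested as a set. Of the 9 other laminin chains reported here, 7 were tested, 6 rose and 1 fell, and the median of these 7 was 0.61 on the log2 scale. LAMC3, the gamma3 chain, had 26.2 ± 2.14 CPM in MANIO and 12.03 ± 0.750 CPM in DMSO (log2 fold change 1.12; edgeR adjusted p = 1.7e-08). LAMA4, the alpha4 chain, had 25.5 ± 1.56 CPM in MANIO and 13.1 ± 0.474 CPM in DMSO (0.97; edgeR adjusted p = 2.1e-08). LAMB2, the beta2 chain, rose by 0.64 on the log2 scale. The chain that fell was LAMA2, the alpha2 chain known from muscle. It had 6.61 ± 0.310 CPM in MANIO and 10.8 ± 0.883 CPM in DMSO (-0.71; edgeR adjusted p = 5.1e-06).

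Of 10 other laminin receptors, all tested, 5 rose, 2 fell and 3 did not pass, with a median of 0.18. ITGA2, the alpha2 subunit that binds collagen and laminin, had 132 ± 7.97 CPM in MANIO and 79.1 ± 6.80 CPM in DMSO (0.73; edgeR adjusted p = 2.9e-07). The syndecan genes SDC1 and SDC4, heparan sulfate proteoglycans of the cell surface, rose by 0.66 and 0.59 on the log2 scale. DAG1, the dystroglycan gene, fell by 0.25 on the log2 scale (edgeR adjusted p = 9.1e-04). Integrin alpha3beta1 is the other main receptor of laminin-332, and its genes are named after their values were seen. ITGA3 had 437 ± 31.6 CPM in MANIO and 346 ± 5.97 CPM in DMSO (0.34; edgeR adjusted p = 1.4e-04). ITGB1 had 353 ± 22.5 CPM in MANIO and 412 ± 21.9 CPM in DMSO (-0.22; edgeR adjusted p = 0.0052). The ratio of ITGB4 to ITGB1 per kb averaged 2.48 ± 0.371 in MANIO and 1.45 ± 0.140 in DMSO (SD, n = 4 each). These genes differ in GC content too (62.9% for ITGB4 and 40.9% for ITGB1), and its part in the ratio was not tested.

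Of 22 basement membrane partners, 15 were tested, 8 rose, 4 fell and 3 did not pass, with a median of 0.26. COL4A5 and COL4A6, neighbouring genes of type IV collagen chains on chromosome X, rose by 0.85 and 1.10 on the log2 scale (edgeR adjusted p = 1.3e-08 and 3.1e-07). COL4A4, another type IV chain, fell by 0.57 on the log2 scale (edgeR adjusted p = 6.7e-06). NID1 encodes nidogen, which joins laminin to type IV collagen networks, and was nearly absent from the DMSO libraries. It had 24, 25, 20 and 30 counts in MANIO replicates 1 to 4 and 1, 1, 0 and 1 counts in DMSO replicates 1 to 4. From the summed counts the ratio was 30.2, with a 95% exact interval of 10.04 to 149 that covers counting error only (edgeR adjusted p = 4.7e-07). COL7A1, the anchoring fibril collagen below hemidesmosomes, is named after its values were seen and had 23.3 ± 3.31 CPM in MANIO and 14.2 ± 2.01 CPM in DMSO (0.72; edgeR adjusted p = 9.5e-05).

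**Figure D5:**
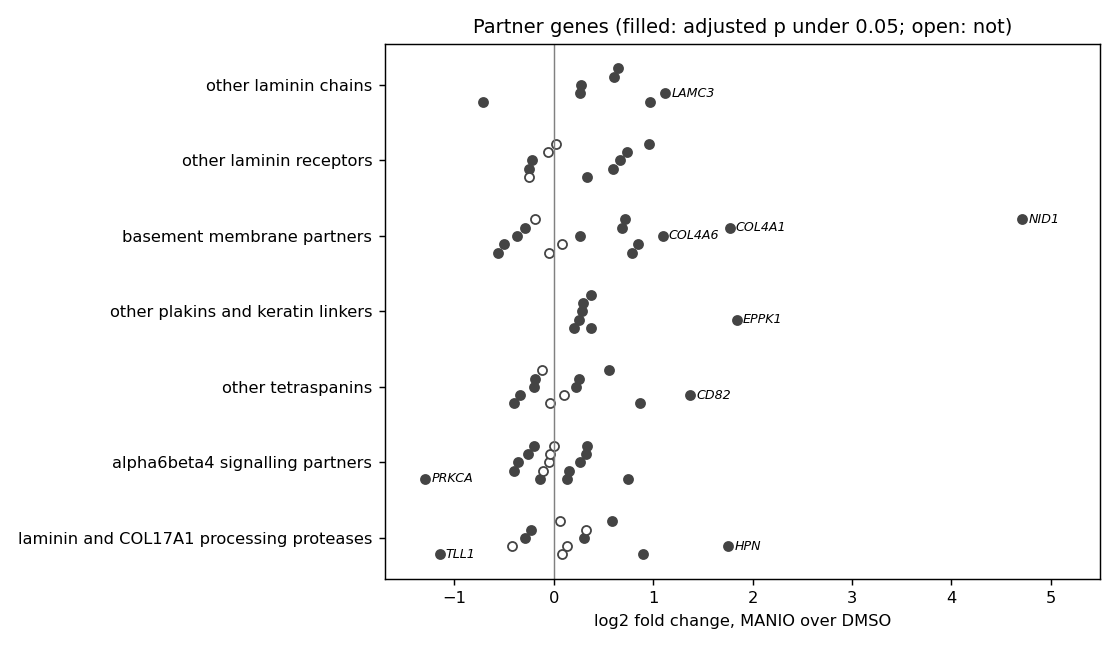
Log2 fold change, MANIO over DMSO, of every tested gene in the 7 partner lists, 1 row for each list (vertical jitter is only for legibility). Filled points had an edgeR adjusted p under 0.05; NID1 is farthest right, from few counts in DMSO, and PRKCA and TLL1 are farthest left.

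Of 9 other plakins and keratins linked to these complexes, 7 were tested, and all 7 rose, with a median of 0.29. EPPK1, the epiplakin gene, had 113 ± 10.8 CPM in MANIO and 31.7 ± 3.83 CPM in DMSO (1.84; edgeR adjusted p = 8.8e-10). The keratin genes KRT8 and KRT18 rose by 0.38 and 0.37 on the log2 scale. Their counts are uncertain because near-identical copies exist elsewhere in the genome, and 7.63% and 16.31% of their exonic bases overlap another gene. The list members KRT5 and KRT14, the keratins of basal cells in skin, did not pass the filter on low counts. KRT14 had 0 counts in all 8 libraries, and KRT5 reached 0.316 CPM in MANIO and 0.0955 CPM in DMSO.

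Of 15 other tetraspanins, 12 were tested, 5 rose, 4 fell and 3 did not pass, with a median of 0.033. CD82 had 27.6 ± 1.19 CPM in MANIO and 10.6 ± 0.429 CPM in DMSO (1.37; edgeR adjusted p = 4.2e-10). TSPAN1 and TSPAN14 rose by 0.87 and 0.55 on the log2 scale, and TSPAN15 fell by 0.40 on that scale.

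Of 16 signalling partners of alpha6beta4, all tested, 6 rose, 6 fell and 4 did not pass, with a median of -0.04. SHC1, an adaptor recruited to the phosphorylated beta4 tail, had 323 ± 13.2 CPM in MANIO and 192 ± 6.77 CPM in DMSO (0.75; edgeR adjusted p = 1.9e-08), and 15.2% of its exonic bases overlap another gene. PRKCA, the protein kinase C alpha gene, had 16.0 ± 1.14 CPM in MANIO and 39.3 ± 2.73 CPM in DMSO (-1.29; edgeR adjusted p = 1.7e-09). RHOA, a small GTPase gene, fell by 0.40 on the log2 scale (edgeR adjusted p = 6.9e-06).

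Of 14 proteases linked to the processing of laminin or collagen XVII, 12 were tested, 4 rose, 3 fell and 5 did not pass, with a median of 0.11. MMP14, a membrane-bound metalloprotease that acts on basement membrane proteins, had 54.6 ± 2.80 CPM in MANIO and 29.3 ± 1.21 CPM in DMSO (0.90; edgeR adjusted p = 1.3e-08). BMP1, which cuts laminin-332 chains during maturation, rose by 0.59 on the log2 scale, and PLAU, the urokinase gene, by 0.30. In PLAU 31.05% of the exonic bases lie under another gene, so its counts are uncertain. TLL1, a relative of BMP1, fell to 0.651 ± 0.203 CPM in MANIO, against 1.45 ± 0.193 CPM in DMSO (-1.15; edgeR adjusted p = 3.5e-04).

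The genes most like LAMA3 over the 8 libraries, by Pearson's r of log2 CPM, were GPRC5A, SULF2 and CEACAM1, each at r = 0.999. Those most like LAMB3 were BAX (0.999), FAM53C (0.998) and KLK6 (0.998), those most like ITGA6 were SPIRE1 (0.993), RPAP2 (0.989) and RBBP6 (0.988), and those most like ITGB4 were HSPG2 (0.997), FSD1 (0.996) and CYHR1 (0.996). With 4 libraries in each of 2 groups, these values mainly follow the difference between the groups.

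The libraries held 29270359 to 32509020 counts in MANIO and 27945196 to 31750628 counts in DMSO. Of 10 markers of colon epithelium, 7 had at least 1 CPM in every library, and VIL1, CDX1 and CEACAM5 were below 1 CPM in all. Of 6 stratified epithelium markers, KRT15 was at 49.7 to 56.4 CPM in MANIO and 17.5 to 21.5 CPM in DMSO, and the other 5, TP63 and KRT14 among them, were below 1 CPM. The summed level of that list was 49.9 to 56.8 CPM in MANIO and 17.6 to 21.6 CPM in DMSO, nearly all of it KRT15. The summed level of 6 fibroblast markers was 39.5 to 47.7 CPM in MANIO and 21.6 to 26.5 CPM in DMSO, nearly all of it COL1A1, the only 1 of the 6 with at least 1 CPM in every library, while DCN, LUM, COL1A2 and COL3A1 were below 1 CPM. None of 4 endothelial markers reached 1 CPM in every library, and their summed level was 0.396 to 0.570 CPM in MANIO and 1.05 to 1.31 CPM in DMSO. That of 6 leukocyte markers was 3.32 to 3.90 CPM in MANIO and 1.99 to 2.72 CPM in DMSO, mostly HLA-DRA. PECAM1, CDH5, PTPRC and CD3E were below 1 CPM in every library. Mitochondrially encoded genes took 6.70 to 7.62% of counts in MANIO and 4.82 to 7.48% in DMSO, where replicate 1 was the highest. The part of these differences in the results was not tested.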

How the data were processed

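RNA of 4 MANIO and 4 DMSO cultures was sequenced from TruSeq RNA v2 libraries on an Illumina HiSeq instrument, per the labels' protocols. That kit does not mark strand, so strand cannot assign reads where genes overlap. The authors deposited raw read counts for 58302 Ensembl genes, as the whole-number values show. Per the submitters' processing notes, the tools were STAR 2.5.3a, HTSeq, FastQC 1.3 and DESeq2, and the build GRCh38, with no role stated. Annotation release and treatment of multi-mapping reads: not given in the sources used here.

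The deposited counts were analysed in R 4.3.3 with edgeR 4.0.16. The filter filterByExpr left 15712 genes, libraries were scaled by TMM, and the quasi-likelihood F test (robust, group alone) was adjusted by Benjamini-Hochberg over all genes tested, with calls under 0.05. Levels are CPM per 1e6 scaled counts. Positions, lengths, GC content and overlaps were read from GENCODE release 29 (GRCh38), where 15673 of the tested genes were found. The test was checked on simulated counts with known changes. Alternatives were DESeq2 1.42.0, upper-quartile scaling, no filter, each library left out, a replicate block and another gene length. The genes and lists were chosen with earlier results of these data known, and 1 gene of the laminin chain list is not reported here. Beside the 8 genes, each list's 3 genes of smallest p, its first gene in the other direction and the 3 genes most like each of LAMA3, LAMB3, ITGA6 and ITGB4 (average log2 CPM of at least 3) were named. No pair of libraries within a group looked like 1 library deposited again, since chi-square over its degrees of freedom was at least 3.60. Same-numbered libraries deviated from their group means with correlations of 0.0385 to 0.163, which cannot decide whether the numbers mark pairs. The labels do not say that they do, so the main test left the numbers out.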

Additional observations from a re-analysis of the deposited data

Results flagged for a closer look

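In 4 of 74 sets of 4 libraries examined, 1 library stood far from the other 3 by Dixon's test, where chance alone gives about 1 in 20. MANIO replicate 4 had the highest ITGB1 level of its group, 387 CPM, against 340 to 346 CPM in the other MANIO libraries. It had the lowest TSPAN14 level, 175 CPM, against 195 to 196 CPM, and the lowest level of CDKN1A, a p53 target used to check the response, at 1257 CPM against 1445 to 1462 CPM. All MANIO libraries were far above the 229 to 284 CPM of CDKN1A in the DMSO libraries. NID1 had 0 CPM in DMSO replicate 3, against 0.0349 to 0.0372 CPM, or 1 count each, in the other DMSO libraries. With counts of only 0 and 1, Dixon's test cannot tell this library from counting error.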

How the results depend on the processing

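Counts of called genes stayed within 1.5 times the reported value for all genes, the 8 genes and the 7 lists under every alternative run. All genes called numbered 8574 (54.6% of those tested), then 8219 with DESeq2, 8574 with upper-quartile scaling and 9241 without a filter. They numbered 8845 with the replicate block and 7818 to 8622 with 1 library left out. Of the 8 genes, 6 were called with DESeq2 and upper-quartile scaling, 7 without a filter and with the replicate block, and 6 to 7 with 1 library left out. The added call was CD151, at -0.16 without a filter and -0.15 with the replicate block, and -0.19 to -0.094 with 1 library left out; the cause was not tested. The block changed no call of the other 7 genes and added 1 call among the laminin receptors (8 against 7). Correlations between same-numbered libraries, 0.0385 to 0.163, cannot decide whether the replicate numbers pair the libraries. Of the MANIO libraries only replicate 2, and of the DMSO libraries only replicate 3, correlated best with its own number. DST turned from -0.08 to 0.0094 without DMSO replicate 1 and MANIO replicate 4, a setting added after the data were seen like both transcript lengths below, and ranged from -0.13 to 0.014 with 1 library left out. No other fold change recomputed here reversed. Levels per length in DMSO moved with the divisor itself: with the longest protein-coding transcript they were 0.628 CPM per kb for LAMA3 (1.18 from the internal start), 8.42 for LAMB3, 34.3 for ITGA6, 113 for ITGB4, 0.440 for COL17A1, 14.2 for DST and 131 for CD151. Coding lengths of RefSeq proteins were not used here. Whole-gene counts limit the statements on LAMA3, DST and PLEC, whose transcript forms differ.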
